A study of Rattus norvegicus with 4 samples.

Results

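The genes for the muscle and cytoplasmic isoforms of actin and tropomyosin were followed in neonatal rat cardiomyocytes that received mimics of the miRNAs of the miR-106b/25 cluster. The genes were chosen by symbol, and all 8 were found among the 15731 genes with deposited RPKM values. These are the sarcomeric actins Actc1 and Acta1, the cytoplasmic actins Actb and Actg1, and the tropomyosins Tpm1, Tpm2, Tpm3 and Tpm4. The question was how the level of each isoform, and the share of muscle isoforms within each family, differed between cultures that received a cluster mimic and the control culture.

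Actin monomers assemble into the thin filaments of the sarcomere, along which tropomyosin and the troponin complex control access of myosin in response to calcium. Actc1 encodes cardiac α-actin, the main sarcomeric actin of the heart, and Acta1 encodes skeletal α-actin, which is co-expressed in the fetal and newborn heart and is a classical marker of cardiac hypertrophy. Actb and Actg1 encode the β- and γ-cytoplasmic actins of the cytoskeleton, while Acta2, smooth muscle α-actin, appears in immature cardiomyocytes and in smooth muscle cells. Tpm1 encodes the main tropomyosin of the rodent heart, Tpm2 encodes β-tropomyosin, and Tpm3 and Tpm4 give cytoskeletal tropomyosins in most cells. Actin isoforms are nearly identical as proteins and the tropomyosin genes are spliced into many forms, which matters for how gene-level values can be read.

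All cultures were ventricular cardiomyocytes of wild type Wistar rats, labelled post natal day 1, and were transfected 1 day after plating. The isolation protocol gives an earlier day of age than this label. Each culture received 1 synthetic mimic, either hsa-miR-25-3p, hsa-miR-93-5p or hsa-miR-106b-5p, or cel-miR-67, a worm miRNA that served as control, and RNA was harvested 72 h later. The mimic dose is 25 nM in one protocol of the labels and 25 mM in another. There was 1 library for each of the 4 mimics, so no value below has a replicate check, and the intervals given cover counting error only. The cells were primary cultures from which fast-adhering cells had been removed by preplating, and no sort is described.

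The mimics carry human sequences, and the mature rat counterparts are shown because the seed, bases 2 to 8 in capitals, separates the mimics into pairings that the comparisons below use. The sequences were taken from RefSeq (build GRCr8), where all 3 lie on the minus strand of chromosome 12, at chr12:22157103-22157123 for miR-106b, chr12:22156894-22156916 for miR-93 and chr12:22156652-22156673 for miR-25. The first pair share the seed AAAGUGC, and the seed of miR-25 is AUUGCAC.
rno-miR-106b-5p: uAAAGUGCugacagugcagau
rno-miR-93-5p: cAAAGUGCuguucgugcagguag
rno-miR-25-3p: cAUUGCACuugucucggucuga

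Many actin genes are controlled through the CArG box, the binding motif of serum response factor, and this motif was searched in the promoter windows that RefSeq gives for the genes, from 250 bases before to 50 bases after the annotated start. A window was found for 7 of the 8 genes, all but Actb. Only exact boxes of 10 bases were counted, with A or T alone between CC and GG, so boxes with a mismatch were missed. The CArG box was found in the windows of 3 of the 7 genes, Actc1, Acta1 and Actg1, and in 1.64% of all 33465 promoter windows of the same length. The windows of the smooth muscle actin genes Acta2 and Actg2, searched alike, held no exact box. The box began 2 bases after the annotated start of Actc1, 94 bases before that of Acta1 and 90 bases before that of Actg1. The 30 bases around each box, with the box in capitals, are shown because both sarcomeric actins and 1 cytoplasmic actin carry it. They lie on the minus strand in GRCr8 at chr3:121271806-121271835, chr19:68784269-68784298 and chr10:106121022-106121051, in the same order.
Actc1: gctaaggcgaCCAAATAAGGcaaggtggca
Acta1: tgcccaacacCCAAATATGGcttgggaagg
Actg1: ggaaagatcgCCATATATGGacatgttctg

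The MCAT motif, the sequence CATTCCT on either strand that TEAD factors bind, was present in the windows of Acta1 and Tpm1 and in that of Acta2, and in 5.17% of all windows. In the Acta1 window, the only one of the 8 genes' windows with both motifs, their bases did not overlap. A match of letters describes the window and not a bound site.

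RPKM, the number of reads on a gene scaled to its length and to the library size, was used to set levels side by side. Its sum over listed genes differed between libraries, from 299389 after miR-25 to 352894 in the control library. Comparisons between libraries therefore depend on the scaling, and those between genes on the annotated lengths. Between 15175185 and 18797234 reads per library fell on listed genes, which was 60.4% to 66.9% of the library sizes behind the values. Together the 8 genes took 2.44% of these reads in the control library, 2.04% after miR-106b, 1.49% after miR-93 and 2.18% after miR-25. Their read numbers ran from 2371 for Tpm3 to 238789 for Actc1, both in the control library, and counting error was therefore small. The cardiomyocyte label was checked against 11 listed marker genes, none of which was at 0 in any library. Their summed level was 11983 RPKM in the control library, 11774 after miR-106b, 9728 after miR-93 and 6136 after miR-25. Myl2 alone gave 6838 RPKM of this sum in the control library and 7223 after miR-106b. After miR-106b 0 of the 11 markers rose and 3 fell past 1.3-fold, where 11.9% of all tested genes rose and 12.7% fell. These counts of markers were the same with RPKM divided by the sum over listed genes. Fibroblast markers, 12 genes, summed to between 1039 and 1503 RPKM. Past 1.3-fold over the control, 0 rose and 5 fell after miR-106b and again after miR-93, against 1 and 7 after miR-25. Of all tested genes 11.9% rose and 12.7% fell after miR-106b, 15.1% and 15.6% after miR-93, and 19.3% and 22.6% after miR-25. With RPKM divided by the sum over listed genes, 0 fibroblast markers rose and 4 fell after miR-106b and after miR-93. After miR-25, 2 rose and 6 fell under that scaling. The 6 endothelial and 6 macrophage genes summed to at most 5.32 and 11.3 RPKM. In such bulk libraries fewer cells of a type and less RNA per cell cannot be told apart.

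Actc1 (ENSRNOG00000008536) was by far the most abundant of the 8 genes in every library and was lower with each mimic than in the control. Its level was 7073 RPKM in the control library, 5034 after miR-106b, 2733 after miR-93 and 4953 after miR-25. All 3 mimic libraries lay below the control, and the miR-93 library stood well below the other two mimics. The log2 fold change over cel-miR-67 was -0.49 after miR-106b (95% exact counting interval -0.50 to -0.48), -1.37 after miR-93 (-1.38 to -1.36) and -0.51 after miR-25 (-0.52 to -0.51). All 3 values passed the 1.3-fold cutoff that the study used to call a gene upregulated or downregulated, applied here to genes above 1 RPKM in both libraries. The value after miR-25 no longer passed it when RPKM was divided by the sum over listed genes (-0.28) or when reads were scaled to reads on listed genes (-0.37). The fall after miR-93, 2.59-fold, stood at percentile 1.21 of the 11280 tested genes. Actc1 was the second most abundant gene of all in the control library and after miR-25, and ranked 4 after miR-106b and 8 after miR-93. It alone took 1.57% of all reads on listed genes in the control library and 0.673% after miR-93.

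Acta1 (ENSRNOG00000017786) spread over the widest range of the 8 genes as a fold, 4.34-fold from its lowest to its highest library, though Actc1 spanned more RPKM. Its level was 587 RPKM in the control library, 471 after miR-106b, 169.9 after miR-93 and 738 after miR-25. The lowest library was therefore again that of miR-93, but the highest was that of miR-25, which stood above the control. Acta1 fell 3.45-fold after miR-93, a log2 fold change of -1.79 (-1.83 to -1.75) that stood at percentile 0.505 of the tested genes. The changes after miR-106b (-0.32, interval -0.34 to -0.29) and after miR-25 (0.33, interval 0.30 to 0.36) were smaller than the cutoff and opposite in sign. With RPKM divided by the sum over all listed genes, the value after miR-25 was 0.57 and passed the cutoff. Acta1 moved from rank 52 in the control library to 261 after miR-93 and 28 after miR-25.

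The cytoplasmic actins showed a much narrower range. Actb (ENSRNOG00000034254) had 976 RPKM in the control library, 969 after miR-106b, 1083 after miR-93 and 958 after miR-25. The value after miR-93 stood farthest from the control. The counting intervals of control (966 to 986), miR-106b (960.5 to 978) and miR-25 (949 to 968) overlapped between neighbours. Log2 fold changes of Actb were -0.01 for miR-106b, 0.15 for miR-93 and -0.03 for miR-25, none past the cutoff. The interval of the fold change included 0 for miR-106b (-0.03 to 0.01) but not for miR-25 (-0.05 to -0.006). Actg1 (ENSRNOG00000036701) followed with 608 RPKM in the control library, 594 after miR-106b, 659 after miR-93 and 524 after miR-25. Its log2 fold changes were -0.03, 0.12 and -0.21, also within the cutoff. Control and miR-106b overlapped in their counting intervals (598 to 617 and 586 to 603). The interval of the miR-106b fold change (-0.06 to -0.002) nevertheless excluded 0. The annotated length behind the Actg1 values was 1128 bases, that of an actin reading frame without untranslated parts, against 1596 bases for Actb, so their levels depend on what the annotation includes. How reads that fit several actin genes were counted is not given in the sources used here, and the levels of these near-identical genes are uncertain to that degree.

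**Figure D1:**
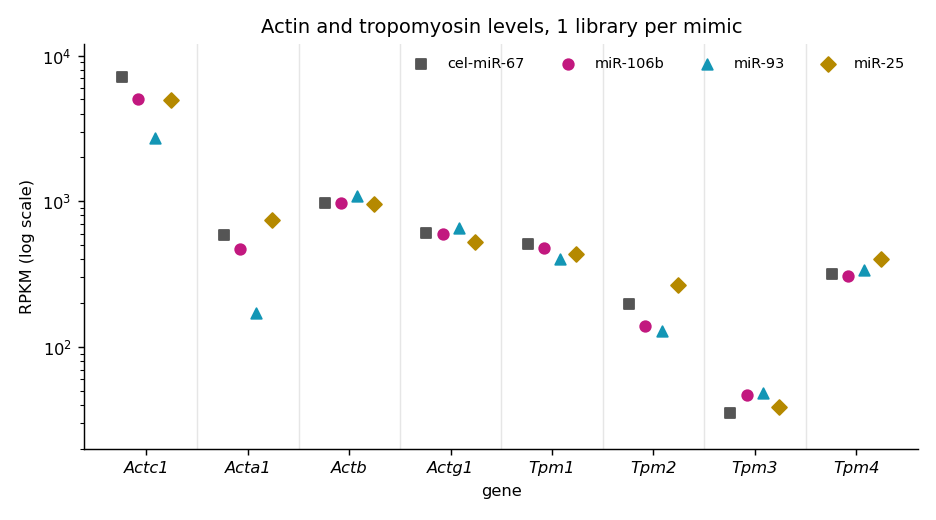
Level of each of the 8 genes in RPKM on a log axis, with 1 point for each of the 4 libraries. The points of Actc1 run from 2733 to 7073 RPKM and those of Acta1 from 169.9 to 738, while those of Actb stay between 958 and 1083.

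Tpm1 (ENSRNOG00000018184), the main cardiac tropomyosin gene, had 512 RPKM in the control library, 479.6 after miR-106b, 399 after miR-93 and 431 after miR-25. The control library was the highest and that of miR-93 the lowest, and no counting intervals of neighbours overlapped. The log2 fold changes were -0.09, -0.36 (-0.38 to -0.34) and -0.25, so that the difference after miR-93, 1.28-fold, lay just inside the cutoff and its interval reached it. In the miR-106b library Tpm1 was slightly higher than Acta1 (471 RPKM), and their counting intervals (476 to 484 and 465 to 478) overlapped in part. Acta1 was higher than Tpm1 in the control library and after miR-25, and lower after miR-93.

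Tpm2 (ENSRNOG00000016731), the β-tropomyosin gene, moved in both directions. Its level was 198 RPKM in the control library, 139 after miR-106b, 128 after miR-93 and 267 after miR-25. Tpm2 fell after miR-106b (log2 fold change -0.51, interval -0.56 to -0.46) and after miR-93 (-0.63, interval -0.68 to -0.58), and rose after miR-25 (0.43, interval 0.39 to 0.47). The control library thus lay between the libraries of both seeds. The miR-25 library held 1.92-fold as much Tpm2 as that of miR-106b and 2.09-fold as much as that of miR-93.

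Tpm3 (ENSRNOG00000017441) was the least abundant of the 8 genes, with 35.3 RPKM in the control library, 47.0 after miR-106b, 48.0 after miR-93 and 38.8 after miR-25. It rose after miR-106b (log2 fold change 0.41, interval 0.34 to 0.49) and after miR-93 (0.44, interval 0.37 to 0.52). These libraries overlapped in their counting intervals (45.6 to 48.4 and 46.5 to 49.5), and the value after miR-25, 0.14 (0.06 to 0.22), was within the cutoff. The intervals of Tpm3 after miR-106b and miR-93 reached below the cutoff of 0.38, so its place past it was not settled by counting error alone. Tpm4 (ENSRNOG00000015496), which encodes a cytoskeletal tropomyosin, had 317 RPKM in the control library, 306 after miR-106b, 338 after miR-93 and 403 after miR-25. The highest library was that of miR-25, at a log2 fold change of 0.35 (0.31 to 0.39), within the cutoff as deposited and at 0.59 past it with RPKM divided by the sum over listed genes. The values after miR-106b and miR-93 were -0.05 and 0.09.

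**Figure D2:**
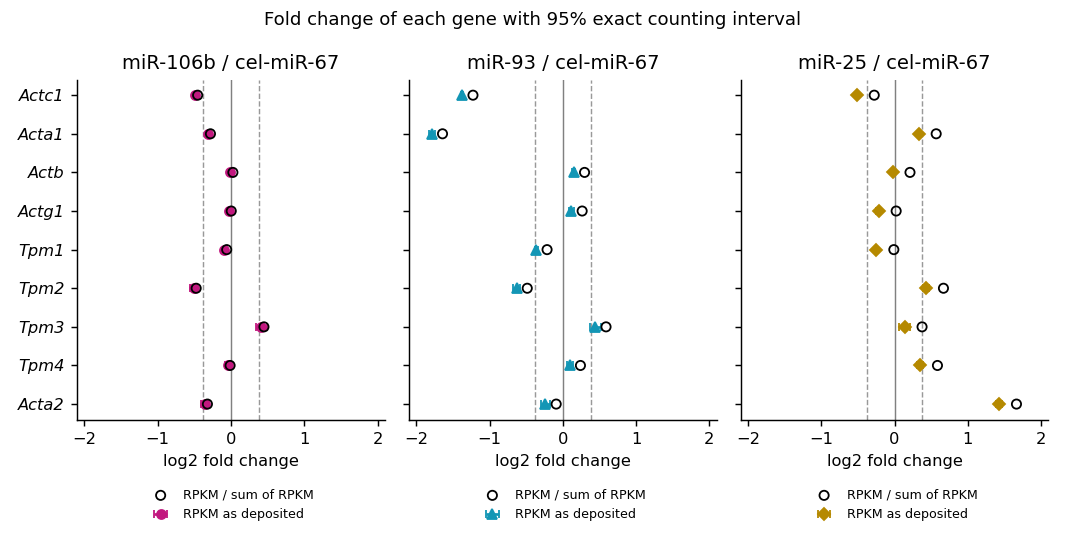
Log2 fold change over cel-miR-67 of the 8 genes and Acta2 for each mimic, as deposited (filled, with the 95% exact counting interval) and after RPKM was divided by the sum over listed genes (open), with the 1.3-fold cutoff dashed. Actc1 and Acta1 lie at -1.37 and -1.79 after miR-93, and Tpm2 lies left of 0 after miR-106b and miR-93 and right of 0 after miR-25.

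Counted together, 1 of the 8 genes rose and 2 fell after miR-106b, where 11.9% of the 11296 tested genes rose and 12.7% fell. After miR-93, 1 rose and 3 fell, against 15.1% and 15.6% of 11280 tested genes. After miR-25, 1 rose and 1 fell, against 19.3% and 22.6% of 11198 tested genes. The median log2 fold change of the 8 genes was -0.07, -0.13 and 0.06 in the same order, and that of all tested genes was -0.003, -0.002 and -0.01. All 3 comparisons used the same control library. Dividing RPKM by the sum over listed genes shifted every log2 fold change upwards by 0.03 after miR-106b, 0.15 after miR-93 and 0.24 after miR-25. Under this scaling no gene past the cutoff turned sign, the calls after miR-106b and miR-93 did not change, and after miR-25 the counts became 3 higher (Acta1, Tpm2 and Tpm4) and 0 lower, since Actc1 then stood at -0.28. The shift applied to every tested gene, and the share of all tested genes past the cutoff was not counted under it. Counts under this scaling, here and elsewhere, therefore have no such share beside them. The median of the 8 genes became -0.04, 0.01 and 0.29, and with reads scaled to reads on listed genes it was 0.01, 0.01 and 0.20, so that its sign after miR-106b and after miR-93 depended on the scaling.

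**Figure D3:**
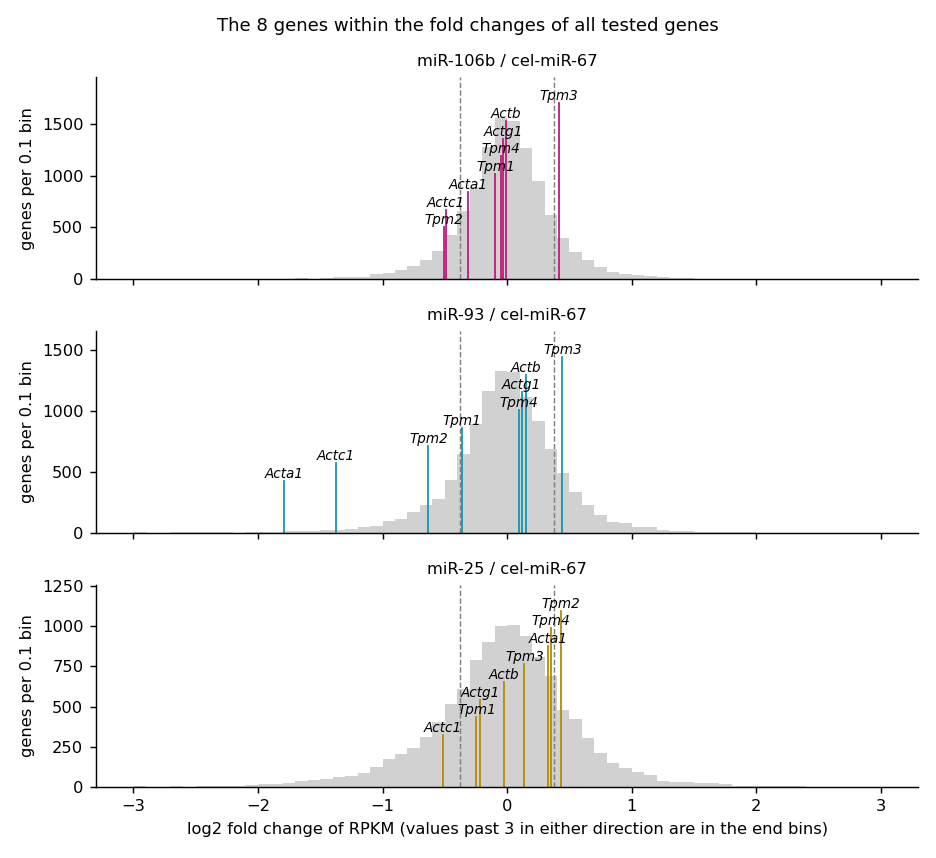
Histogram of the log2 fold changes of all tested genes for each mimic (grey, genes per bin of 0.1), with a labelled line for each of the 8 genes, whose height has no meaning, and the 1.3-fold cutoff dashed. Most of the 8 lines fall within the body of the histogram, and Actc1 and Acta1 after miR-93 fall in its left tail.

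The mimics were also compared with each other, because miR-106b and miR-93 share a seed. Between these libraries 2 of the 8 genes passed the cutoff, both lower after miR-93, against 8.21% of 11391 tested genes that were lower and 7.30% that were higher. Actc1 was at -0.88 (-0.89 to -0.87) and Acta1 at -1.47 (-1.51 to -1.43) for miR-93 over miR-106b, at percentiles 1.16 and 0.237 of the tested genes. The other 6 genes lay between -0.27 and 0.16, and for Tpm3 the interval of the difference included 0 (0.03, interval -0.03 to 0.09). For miR-25 over miR-106b, 3 genes were higher and 0 lower (22.1% and 23.0% of 11183 tested genes). These were Acta1 at 0.65, Tpm2 at 0.94 and Tpm4 at 0.40, whereas Actc1 differed by -0.02 (-0.03 to -0.01) and Actb by -0.02 (-0.04 to 0.003). For miR-25 over miR-93, Actc1 at 0.86, Acta1 at 2.12 and Tpm2 at 1.06 were higher and 0 were lower (22.1% and 23.0% of 11198 tested genes), so that Acta1 differed 4.34-fold between these libraries.

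The share of muscle isoforms in the summed level of the 4 actin genes was 82.9% in the control library (counting error 0.070 percentage points, SE). It was 77.9% after miR-106b (0.076), 79.3% after miR-25 (0.077) and 62.5% after miR-93 (0.114). All 3 mimic libraries lay below the control by many times the counting error, and the difference for miR-93 was -20.4 percentage points. Expressed as a ratio, the sarcomeric actins exceeded the cytoplasmic ones 4.84 times in the control library, 3.52 times after miR-106b, 3.84 times after miR-25 and 1.67 times after miR-93. The sum of Actc1 and Acta1 was 7659 RPKM in the control library and 2903 after miR-93, while that of Actb and Actg1 was 1584 and 1742 RPKM. The summed level of the 4 actin genes was accordingly 9243 RPKM in the control library, 7069 after miR-106b, 4645 after miR-93 and 7173 after miR-25.

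Within the sarcomeric pair, Acta1 made up 7.66% of the summed level in the control library and 8.56% after miR-106b. This share was 5.85% after miR-93 and 13.0% after miR-25, the library in which Acta1 was highest and Actc1 below the control. Within the cytoplasmic pair the Actb share varied little, at 61.6% in the control library, 62.0% after miR-106b, 62.2% after miR-93 and 64.7% after miR-25.

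For the tropomyosins, the summed share of Tpm1 and Tpm2, whose striated muscle forms are the tropomyosins of the sarcomere, was 66.9% in the control library (counting error 0.244 percentage points, SE). It was 63.6% after miR-106b (0.222), 61.2% after miR-25 (0.222) and 57.7% after miR-93 (0.242). The order of libraries differed from that of the actins, since miR-25 lay below miR-106b here. With Tpm1 alone as the muscle gene the share was 48.2% in the control library, 49.4% after miR-106b, 43.7% after miR-93 and 37.9% after miR-25, and the miR-106b library was no longer below the control. Both Tpm1 and Tpm2 also give non-muscle splice forms and Tpm3 gives a muscle form, which gene-level values do not separate. Tpm2 made up 27.9% of the pair Tpm1 and Tpm2 in the control library, 22.5% after miR-106b, 24.3% after miR-93 and 38.2% after miR-25. Tpm4 made up 29.8% of the 4 tropomyosin genes in the control library against 31.5% after miR-106b, 37.0% after miR-93 and 35.4% after miR-25.

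**Figure D4:**
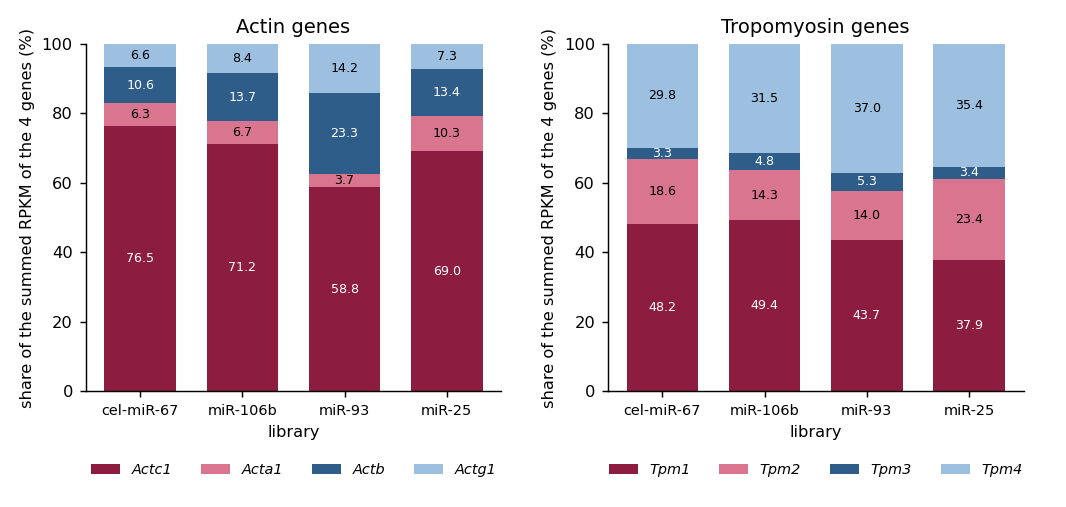
Share of each gene in the summed RPKM of the 4 actin genes (left) and the 4 tropomyosin genes (right), in percent, with 1 stacked bar for each library. The red segments of the muscle genes add up to 82.9% of actin in the control library and to 62.5% after miR-93, and to 66.9% and 57.7% of tropomyosin.

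The tropomyosin family as a whole varied less than the actins. Its summed level was 1062 RPKM in the control library, 972 after miR-106b, 912 after miR-93 and 1140 after miR-25. The summed actin level thus exceeded that of tropomyosin 8.71 times in the control library, 7.27 times after miR-106b, 5.09 times after miR-93 and 6.29 times after miR-25.

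Acta2 (smooth muscle α-actin), the actin gene next in level, was the only actin gene that rose as deposited, and did so in the miR-25 library alone, where Acta1 also passed the cutoff with RPKM divided by the sum. It had 164 RPKM in the control library, 128 after miR-106b, 139 after miR-93 and 440.2 after miR-25. Acta2 rose 2.69-fold after miR-25 (log2 fold change 1.43, interval 1.38 to 1.47), and stood at -0.36 and -0.24 after miR-106b and miR-93, within the cutoff. Actg2, the enteric smooth muscle actin, lay between 28.2 and 34.8 RPKM in all 4 libraries. Counting both genes with the muscle actins gave a muscle share of 83.2% in the control library, 78.4% after miR-106b, 63.8% after miR-93 and 80.6% after miR-25, and left the order of the libraries as it was. In the miR-25 library the 9 smooth muscle markers, which include Acta2, summed to 2106 RPKM against 803 in the control library. Of these 9, 5 rose and 1 fell, or 6 and 0 with RPKM divided by the sum. Of all tested genes 19.3% rose and 22.6% fell in this library as deposited. None of these 9 markers was at 0 in any library. In the same library all 11 cardiomyocyte markers fell, with a median log2 fold change of -0.85. With RPKM divided by the sum over listed genes the median was -0.61, and all 11 were still below the control, 7 of them past the cutoff. Of the 4 atrial markers 1 rose and 1 fell in this library. Their summed level of 4544 RPKM against 1982 in the control was carried by Nppa (4425 against 1860.4 RPKM), while Myl7 fell (-0.70). Nppa is not only an atrial marker, since the paper uses it, with Acta1, as a marker of hypertrophic stress. After miR-93, 15.1% of all tested genes rose and 15.6% fell as deposited. Of the 11 cardiomyocyte markers 4 fell and 0 rose, or 2 and 0 with RPKM divided by the sum. Of the 4 atrial markers 2 rose and 2 fell. Their sum was then 579.5 RPKM, again set by Nppa (261 RPKM), while Myl7 (3.04) and Myl4 (0.85) rose. The part of these marker changes in the actin and tropomyosin values was not tested.

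The partners of actin and tropomyosin in the thin filament were taken from a list of 25 genes that holds the other actins, the troponins and the proteins of filament ends and length control. Of these, 23 were listed and 16 were above the RPKM cutoff in both libraries of every comparison. After miR-106b 1 of the 16 rose and 5 fell, after miR-93 2 rose and 5 fell, and after miR-25 3 rose and 7 fell. As deposited, 11.9% of all tested genes rose and 12.7% fell after miR-106b. The shares were 15.1% and 15.6% after miR-93 and 19.3% and 22.6% after miR-25. With RPKM divided by the sum over listed genes, 1 rose and 5 fell, 3 rose and 5 fell, and 4 rose and 5 fell. The median log2 fold change of the 16 was -0.11, -0.15 and -0.34, and under that scaling it was -0.07, -0.003 and -0.10. Of the 4 troponin genes tested, all fell after miR-25 (median -0.94, or 3 of 4 and -0.70 with RPKM divided by the sum), while 1 rose and 1 fell after miR-106b and after miR-93.

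Tnnc1, which encodes the calcium-binding troponin C of heart and slow muscle, fell with all 3 mimics. It had 2579.7 RPKM in the control library, 1847 after miR-106b, 1504 after miR-93 and 1172 after miR-25, and log2 fold changes of -0.48, -0.78 and -1.14. Tnni3, which encodes the inhibitory cardiac troponin I, had 351 RPKM in the control library, 543 after miR-106b, 495 after miR-93 and 15.9 after miR-25. It rose after miR-106b (0.63) and miR-93 (0.49), and its fall after miR-25, at -4.47 (-4.63 to -4.31), exceeded that of any of the 8 genes. Among the genes of filament ends, Xirp2, which encodes an actin-binding protein of the intercalated disc, fell after miR-106b (-1.61) and most after miR-93 (-4.48), from 63.0 RPKM to 20.6 and 2.82, and was at 48.7 RPKM (-0.37) after miR-25. Lmod2, the gene of leiomodin 2, which lengthens thin filaments at their pointed ends, had 167 RPKM in the control library, 117 after miR-106b, 52.0 after miR-93 and 78.3 after miR-25, and fell with all 3 mimics (-0.51, -1.68 and -1.09). Tmod3, which encodes a tropomodulin capping pointed ends in many cell types, rose after miR-93 (0.40) and miR-25 (0.69) and was at 0.30 after miR-106b. The counting intervals of Tmod3 after miR-93 (0.25 to 0.55) and miR-106b (0.15 to 0.45) spanned the cutoff.

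**Figure D5:**
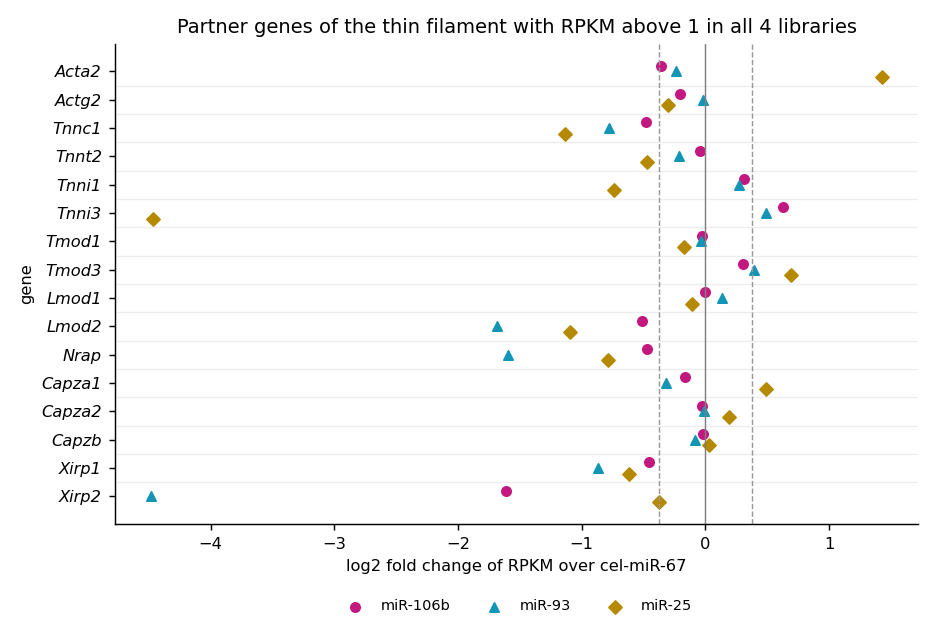
Log2 fold change over cel-miR-67 of the 16 thin filament partner genes above 1 RPKM in all 4 libraries, with 1 point for each mimic and the 1.3-fold cutoff dashed. Tnni3 after miR-25 and Xirp2 after miR-93 lie farthest from 0, at -4.47 and -4.48, and Acta2 after miR-25 lies farthest to the right at 1.43.

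Genes that fold actin, the chaperonin TRiC and prefoldin subunits with a cofactor, mostly stayed within the cutoff. Of 15 tested genes 0 rose or fell after miR-106b, 1 fell after miR-93 and 6 fell after miR-25, and none rose with any mimic. Of all tested genes 11.9% rose and 12.7% fell after miR-106b, 15.1% and 15.6% after miR-93, and 19.3% and 22.6% after miR-25. The medians of the 15 genes were -0.07, -0.09 and -0.36 in the same order. With RPKM divided by the sum, 2 fell after miR-25, and the medians were -0.04, 0.06 and -0.12. Pfdn1, a prefoldin subunit, was the gene that fell after miR-93 (-0.96), and another subunit, Pfdn6, fell most after miR-25 (-1.21, interval -1.60 to -0.83). Of 8 tested regulators of actin genes, 1 fell after miR-106b, 2 rose after miR-93, and 2 rose and 1 fell after miR-25, or 3 and 0 with RPKM divided by the sum. The same shares of all tested genes, as deposited, stand beside these counts. Srf, the factor that binds the CArG box, had 28.6 RPKM in the control library, 26.5 after miR-106b, 22.6 after miR-93 and 29.0 after miR-25. It did not pass the cutoff with any mimic (-0.11, -0.34 and 0.02), but its counting interval after miR-93 (-0.42 to -0.26) spanned the cutoff. Srf was singled out after its values were seen, because of the motif shown above. Mef2d, which encodes a MADS-box factor of muscle genes, fell after miR-106b (-0.52) and miR-25 (-0.47) and was at -0.33 after miR-93. The counting intervals of Mef2d (-0.76 to -0.29, -0.71 to -0.23 and -0.56 to -0.10) overlapped and each spanned the cutoff. Counting error alone therefore did not settle these calls. The homeobox gene Nkx2-5 of the cardiac lineage rose after miR-93 (0.52) and miR-25 (0.88) and was at 0.33 after miR-106b.

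To describe which genes shared the pattern of each isoform, the 3 genes with the smallest root mean square difference over the 3 log2 fold changes were taken among 4045 genes above 10 RPKM in all 4 libraries. This likeness rests on 4 libraries and on 1 control. The gene nearest to Actc1 was Pfkp (difference 0.08), at -0.59 after miR-106b, -1.41 after miR-93 and -0.60 after miR-25, followed by Lama4 (0.18) and Tnfrsf12a (0.18). Acta1 had more distant neighbours, Hspb3 (0.22), Tgfb2 (0.28) and Rasgrp3 (0.28), of which Tgfb2 stood at -0.79, -1.75 and 0.37. For the other 6 genes, 3 neighbours each lay within 0.05. Those of Tpm2 were Usp25, Cdc42ep3 and G6pdx, those of Tpm1 were RGD1563861, Rbm20 and RGD1359634, and those of Tpm3 were Mrps23, Ctcf and Get4. Actb was nearest to Dctn2, AC097038.1 and Fam114a1, Actg1 to Esrra, Edf1 and Pabpc1, and Tpm4 to Taf7, Zfp148 and Ide.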

How the data were processed

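RNA of 4 cardiomyocyte cultures, 1 for each mimic, was sequenced. Per the labels and methods, the authors checked reads with FASTQC, trimmed adaptors with Cutadapt, aligned them to Rnor 6.0 with STAR 2.7 and deposited RPKM values computed with edgeR. The program that counted reads on genes is not given in the sources used here. The series table and the 4 sample files held identical values.

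Whole reads, gene lengths and library sizes were recovered from ratios of RPKM between libraries for all 15731 genes, and the rebuilt RPKM matched the deposited values within a relative difference of 9.0e-14. On simulated reads, 96.4% of 15699 genes were recovered exactly. Exact (Clopper-Pearson) 95% intervals of fold changes and Poisson intervals of levels used these reads, and cover counting error only. In simulations the former held the true change in 95.8%, 95.8% and 95.5% of 2514, 2512 and 2519 genes for miR-25, miR-93 and miR-106b.

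Fold changes are ratios of deposited RPKM without a pseudocount, for genes above 1 RPKM in both libraries, and counted as upregulated or downregulated past 1.3-fold. With 1 library per mimic no test was made. All 8 genes passed the RPKM cutoff in every library. From each partner list the largest rise and fall past the cutoff were named per mimic, with Acta2 always. The genes and lists were chosen with earlier results of these data known. Alternatives were a pseudocount of 1 RPKM, no filter or an RPKM cutoff of 2, fold cutoffs of 1.5 and 2, centring on the median gene, reads scaled to reads on listed genes, other definitions of the muscle share and, chosen after seeing the data, RPKM divided by its sum. Symbols listed more than once (176) were left out of lists. Tnni2, Nebl, Setd3, Naa80, Mkl2, Ttn and Pecam1 were not found by symbol and not analysed here. RefSeq sequences are of build GRCr8, and gene coordinates of Rnor 6.0 were not used here. Computations used Python 3.11.15, numpy 2.4.6, pandas 2.3.3, scipy 1.17.1 and matplotlib 3.10.9.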

Additional observations from a re-analysis of the deposited data

Results flagged for a closer look

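Among the 8 genes and the genes named from the partner lists, Tpm2 and Tnni3 changed sign between miR-25 and the mimics of the other seed. Each change was past the 1.3-fold cutoff. Tpm2 was at -0.51 after miR-106b and -0.63 after miR-93 but at 0.43 after miR-25 (log2 fold changes over cel-miR-67). Tnni3 was at 0.63 and 0.49 but at -4.47 after miR-25. Other genes named above also reversed past the cutoff. The atrial marker Myl7 was at 2.11 after miR-106b, 3.04 after miR-93 and -0.70 after miR-25. Usp25, Cdc42ep3 and G6pdx, chosen for their likeness to Tpm2, reversed as Tpm2 did. With 1 library per mimic these differences between mimics were not tested against variation between cultures.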

How the results depend on the processing

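No paired analysis was possible because each mimic had 1 library. Of the 24 log2 fold changes of the 8 genes, 24 stayed within their counting interval with a pseudocount of 1 RPKM, 23 after centring on the median gene, 3 with RPKM divided by its sum and 0 with reads scaled to reads on listed genes. No call of the 8 genes turned sign. With a fold cutoff of 1.5, 0 of the 8 genes rose or fell after miR-106b and after miR-25 and 0 rose after miR-93, and the same counts were 0 with a cutoff of 2. After miR-93, 3 of the 8 genes fell with a cutoff of 1.5 and 2 with a cutoff of 2. Shares of all tested genes were counted only at 1.3-fold, as deposited and with RPKM above 1 in both libraries. Counts at other settings, for the 8 genes and for the partners below, therefore have no share beside them. With RPKM divided by its sum, 3 rose and 0 fell after miR-25 at the 1.3-fold cutoff, without a share of all tested genes under that scaling. Scaling to reads on listed genes shifted values by 0.08 for miR-106b and 0.15 for both other mimics, and for miR-25 moved Actc1 to -0.37, Acta1 to 0.48 and Tpm4 to 0.50. Of the thin filament partners, 1 rose and 1 fell after miR-106b at a cutoff of 1.5, and 0 rose and 5 fell after miR-93. At that cutoff 2 rose and 6 fell after miR-25. With a pseudocount of 1, 1 partner rose after miR-93. Without a filter on low values 4 partners rose after miR-106b, 4 rose and 8 fell after miR-93, and 5 rose after miR-25, since more genes were then counted. The muscle share of actin was 78.7%, 63.6%, 79.9% and 83.5% for miR-106b, miR-93, miR-25 and cel-miR-67 from reads not scaled to length, and 78.4%, 63.8%, 80.6% and 83.2% with Acta2 and Actg2. That of tropomyosin was 79.8%, 75.4%, 77.1% and 82.0% from reads, and 49.4%, 43.7%, 37.9% and 48.2% with Tpm1 alone. Precision is limited by the absence of replicates, not by depth. The split of reads between near-identical actin genes and between splice forms could not be examined from gene-level values.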

Other observations

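Tnnt1, the gene of slow skeletal troponin T, was below 1 RPKM in the control library and so entered the counts above only where no filter on low values was applied, and was chosen here after its values were seen. It had 13.5 RPKM after miR-106b, 2.08 after miR-93, 0.158 after miR-25 and 0.228 in the control library, where 6 reads were counted. The log2 fold change over cel-miR-67 was 5.88 after miR-106b (exact counting interval 4.75 to 7.34) and 3.19 after miR-93 (1.99 to 4.69), and after miR-25 it was -0.53 with an interval that included 0 (-2.58 to 1.45).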
